A study of Mus musculus with 6 samples.

Results

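The genes described here encode calcium buffers and calcium sensors of the EF-hand family whose proteins are used as markers of retinal neurons: *Calb1*, *Calb2*, *Pvalb*, *Cabp1*, *Cabp5*, *Hpca*, *Ncald*, *Necab1*, *Necab2* and *Vsnl1*. They were chosen by symbol, and 9 of the 10 are among the 11339 genes listed in the deposited expression table. *Pvalb* is not listed and was not analysed here. RNA was sequenced from retinas of 3 *Mll1KO* and 3 wild-type (WT) samples at P14 (postnatal day 14), each made from 2 retinas. *Mll1KO* mice are MLL1 fl/fl and carry Chx10-Cre, which drives Cre recombinase in retinal progenitor cells, and mice of both genotypes are of strain C57Bl6/J. Some cells of *Mll1KO* retinas may keep an intact allele, and the WT mice are not described as Cre-negative littermates, so that loss of MLL1 cannot be told apart from the presence of Cre or of the floxed alleles. The labels do not say which animals or litters gave the samples, and p-values here measure the spread between these samples. The question was whether transcripts that mark inner retinal neurons differ between the genotypes.

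The EF-hand is a helix-loop-helix motif whose loop holds a calcium ion. Calbindin, calretinin and parvalbumin mainly buffer calcium, whereas hippocalcin, neurocalcin, visinin-like proteins and the calmodulin-like CaBPs change shape on binding calcium and act on channels, receptors or membranes. In the mouse retina, calbindin marks horizontal cells (HC) and some amacrine cells (AC), calretinin marks amacrine and ganglion cells (GC), and CaBP5 marks bipolar cells (BC).

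Levels are given as RPKM, read numbers set against gene length and library total, and values are listed in the order of samples a, b and c. Differences between genotypes, *Mll1KO* minus WT, were taken on the log2(RPKM + 1) scale, which understates the change of weakly expressed genes, and were tested with limma. A gene was called at a Benjamini-Hochberg adjusted p under 0.05 over all 11339 genes. The libraries held between 17961097 and 23836033 reads, and the 9 genes had between 863 reads (*Necab1*) and 8257 reads (*Calb2*) per library. *Kmt2a*, as *Mll1* is now called, had RPKM values of 36.1, 36.9 and 34.6 in WT and 22.9, 20.4 and 22.3 in *Mll1KO*. It fell by 0.69 on the log2 scale (standard error 0.05, limma adjusted p = 2.77e-05), with no overlap between the groups. The LoxP sites flank only a part of the gene, while RPKM covers all its exons. This level is therefore not that of intact *Kmt2a* transcripts.

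Of the 9 EF-hand genes, 1 was called lower in *Mll1KO*, *Calb2*, and the other 8 were not called in either direction. This is 11.1% of the genes, where 23.3% of all listed genes were called, 8.81% of all genes higher and 14.5% lower in *Mll1KO*. None of the 9 was called higher by limma or by limma-voom on recovered reads, and 1, *Necab1*, was higher at an unadjusted p under 0.05. The groups did not overlap for 1 of the 9 genes, again *Calb2*, against 41.1% of all genes. The median log2 difference was -0.01 over the 9 genes and -0.03 over all genes, with 5 of the 9 below 0 and 4 above. The number of genes called among all genes, 2643, fell to 1757 without *Mll1KO* sample c and to 1704 without WT sample b. The share of higher genes among those called, 37.8% with libraries scaled to their total, was 51.9% with TMM factors, 51.2% with the upper quartile and 53.1% with RLE factors. It was 2.01% with each library scaled to the same sum of rod genes, a scaling that moved the median of all genes by -0.29. With that scaling 8 of the 9 EF-hand genes were called lower, as were 9634 of all genes.

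In WT retinas *Calb2* had by far the highest level of the 9 genes, with a mean RPKM of 255, above 99.3% of listed genes. *Vsnl1* followed at 46.1, and its WT values did not overlap those of *Calb2* above or *Necab2* below it. *Necab2* (32.5), *Cabp5* (32.4) and *Cabp1* (31.8) had levels whose WT values overlapped with the next in this order. *Hpca*, at 29.8 RPKM, lay just below the lowest *Cabp1* value in WT, but the values of these genes overlapped in *Mll1KO*. *Ncald* (11.8) and *Calb1* (11.3) overlapped in WT, and *Necab1* (8.75) was lowest, at a level above 46.7% of listed genes. In *Mll1KO* the means kept *Calb2* first and *Vsnl1* second, while *Cabp1* at 32.6 stood above *Cabp5* at 30.4 and *Necab2* at 29.96. Summed over the 9 genes, RPKM was 443, 460.2 and 475 in WT and 403, 373 and 372 in *Mll1KO*. Without *Calb2* the sums were 201, 200.7 and 212 in WT and 203, 196.8 and 207 in *Mll1KO*, and the groups overlapped.

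**Figure D1:**
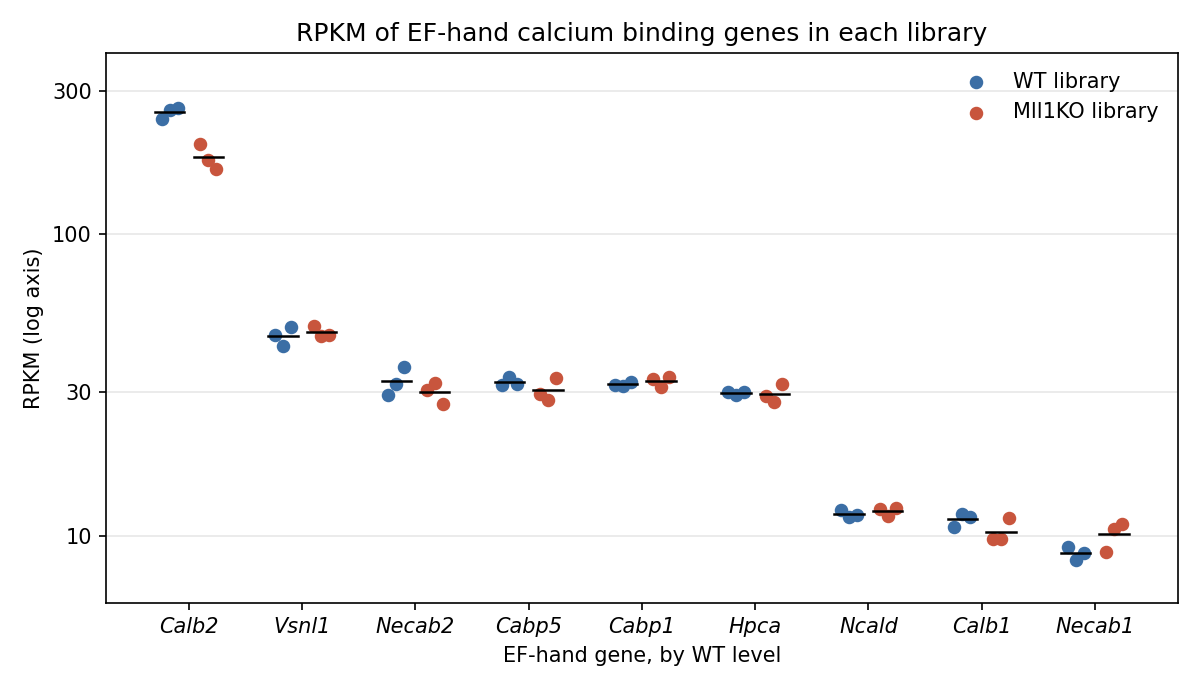
RPKM (log axis) of the 9 listed EF-hand genes in each library, ordered by WT level, with 3 WT libraries (blue) and 3 *Mll1KO* libraries (red) per gene and black bars at the group means. *Calb2* is the gene whose groups stand apart, at a mean of 255 in WT and 180.1 in *Mll1KO*, and the points of the other 8 genes overlap between the groups.

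*Calb2* encodes calretinin, a cytosolic buffer of amacrine and ganglion cells. Its RPKM was 242, 259 and 263 in WT and 199.5, 177 and 164 in *Mll1KO*. The groups did not overlap, *Mll1KO* being low in each sample, with *Mll1KO* sample a the nearest to WT. The WT mean was 255 and the *Mll1KO* mean 180.1, with a standard deviation of 17.9 in the latter, so that *Mll1KO* had 70.7% of the WT level. The log2 difference was -0.50 (standard error 0.07, 95% interval -0.66 to -0.35, limma adjusted p = 0.000831). In whole retinas, fewer cells of a type and less RNA per cell cannot be told apart. *Calb2* was called lower in 16 of 16 alternatives of scaling, pseudocount, model or samples, with differences from -0.83 to -0.44 (limma adjusted p from 1.32e-06 to 0.00489).

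Genes of a list of ganglion cell markers were lower together with *Calb2*. The list also holds neurofilament genes, and the paper used neurofilament to label axons of horizontal cells. Exon bases of *Nefl* lie to 32.8% in exons of *Nefm*, both named outside the rule. Of 12 genes in the GC list, 11 are listed (*Pou4f3* is not), 9 of them were called lower, and the median log2 difference was -0.53. Of all genes, 8.81% were called higher and 14.5% lower. The summed RPKM of the GC list was 614, 572 and 604 in WT and 483, 429 and 398 in *Mll1KO*, with *Sncg* its most abundant gene. Its log2 differences ran from -0.89 for *Rbpms2*, an RNA-binding protein of ganglion cells (limma adjusted p = 5.27e-06), to -0.15 for *Slc17a6*, a vesicular glutamate transporter (limma adjusted p = 0.159). The AC list moved in both directions, with 13 of 15 genes listed (*Neurod6* and *Th* are not) and a median of 0.07. Its 3 higher genes were *C1ql2*, *Gad1* and *Slc6a9* and its 5 lower genes *Gad2*, *Ebf3*, *Tfap2a*, *Tfap2b* and *Tfap2c*, the extremes being *Gad2* at -0.49 (limma adjusted p = 0.00165) and *C1ql2* at 0.35 (limma adjusted p = 0.00612). The summed RPKM of the AC list was 426, 409.6 and 429 in WT and 418, 428 and 471 in *Mll1KO*, with overlap. The calls of *C1ql2*, *Gad1* and *Slc6a9* were lost with the scaling to rod genes, and that of *Tfap2c* held in 12 of 16 alternatives (limma adjusted p up to 0.0738). Of these genes *Gad1*, *Slc6a9*, *Ebf3*, *Tfap2a*, *Tfap2b* and *Tfap2c* were named after their values were seen. Exon bases of *Slc6a9* lie to 30.2% and those of *Tfap2a* to 14.6% in exons of other genes. Some markers of these cell types are lower as *Calb2* is, and their part in the result was not tested.

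Ratios within a library do not depend on how libraries are scaled, and 3, chosen after the levels of *Calb2* were seen, are given as values, since the smallest p of an exact permutation test of 3 against 3 samples, 0.1, cannot pass the threshold. Set against the GC list, *Calb2* stood at 39.5, 45.4 and 43.5 RPKM per 100 RPKM of the list in WT. In *Mll1KO* the ratio was 41.3, 41.1 and 41.3, within the range of WT. Set against the AC list, *Calb2* stood at 56.9, 63.3 and 61.3 per 100 RPKM in WT and at 47.7, 41.3 and 34.9 in *Mll1KO*. Here the groups did not overlap. *Calb2* made up 54.7%, 56.4% and 55.4% of the summed RPKM of the 9 EF-hand genes in WT. In *Mll1KO* its share was 49.6%, 47.3% and 44.2%, below WT in each sample, which follows from the sums with and without *Calb2* given above.

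*Hpca* and *Ncald* encode hippocalcin and neurocalcin delta, myristoylated sensors that are also found in amacrine and ganglion cells. *Hpca* RPKM was 29.9, 29.4 and 30.02 in WT and 29.0, 27.8 and 32.0 in *Mll1KO*. The *Mll1KO* values spread around the WT values on either side. The *Hpca* log2 difference was -0.01 (standard error 0.05, 95% interval -0.13 to 0.11, limma adjusted p = 0.91), and its sign depended on scaling, being 0.02 with TMM, upper-quartile or RLE factors. *Ncald* RPKM was 12.2, 11.6 and 11.8 in WT and 12.3, 11.6 and 12.4 in *Mll1KO*. The groups overlapped, and the log2 difference of *Ncald* was 0.03 (standard error 0.05, 95% interval -0.08 to 0.13, limma adjusted p = 0.721). The intervals of both sensors lie above that of *Calb2*, which is assigned to the same cell types.

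*Calb1* encodes calbindin, the buffer by which horizontal cells are usually stained. Its RPKM was 10.7, 11.8 and 11.6 in WT and 9.76, 9.73 and 11.5 in *Mll1KO*. *Mll1KO* samples a and b lay below all WT samples and sample c lay within them, so that the groups overlapped. The 95% interval of its log2 difference ran from -0.28 to 0.02, with a *Mll1KO* mean of 90.9% of WT. Leaving out each sample gave differences from -0.20 to -0.09 for *Calb1*, without a call. Among horizontal cell markers, 5 of 7 genes are listed (*Lhx1* and *Gja10* are not) and 5 of 5 were called lower, where 14.5% of all genes were. These were the transcription factor genes *Onecut1*, *Onecut2*, *Onecut3* and *Sall3* and the anion exchanger gene *Slc4a3*. In the paper's list of antibodies, those to the products of *Onecut1* and *Sall3* also mark cones. On the log2(RPKM + 1) scale differences ran from -0.70 for *Slc4a3* (limma adjusted p = 1.52e-05) to -0.36 for *Sall3* (limma adjusted p = 0.00256), with a median of -0.60. By mean RPKM the order differed. *Mll1KO* had 52.1% of the WT level for *Onecut1*, 53.8% for *Onecut3*, 57.9% for *Onecut2*, 60.4% for *Slc4a3* and 67.9% for *Sall3*. The summed RPKM of the HC list was 40.2, 41.1 and 40.1 in WT and 23.6, 24.0 and 24.8 in *Mll1KO*, and *Slc4a3* was its most abundant gene. *Onecut1*, *Onecut2* and *Onecut3* were named after their values were seen. Exon bases of *Onecut1* lie to 52.8% in exons of *Gm20649*. The share of *Calb1* transcripts that comes from each cell type was not measured.

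*Cabp5* encodes a calmodulin-like sensor of bipolar cells, and *Cabp1*, whose product modulates voltage-gated calcium channels and inositol trisphosphate receptors, is expressed in bipolar and amacrine cells. *Cabp5* RPKM was 31.7, 33.7 and 31.8 in WT and 29.6, 28.2 and 33.4 in *Mll1KO*. *Mll1KO* samples a and b were below all WT samples, while sample c was within their range. The log2 difference of *Cabp5* was -0.09 (standard error 0.06, 95% interval -0.23 to 0.04, limma adjusted p = 0.292). Leaving out each sample gave values from -0.16 to -0.04 for *Cabp5*, without a call. *Cabp1* RPKM was 31.7, 31.5 and 32.3 in WT and 33.2, 31.1 and 33.5 in *Mll1KO*. Its *Mll1KO* values lay on both sides of the WT range, and its log2 difference of 0.03 (standard error 0.04, 95% interval -0.06 to 0.13, limma adjusted p = 0.59) had the smallest standard error of the 9 genes. In the BC list 14 of 14 genes are listed and 7 were called lower, where 14.5% of all genes were, with a median of -0.18. The BC list ran from the transcription factor gene *Vsx1* at -0.68 (limma adjusted p = 0.00011) to *Bhlhe23* at 0.09 (limma adjusted p = 0.215). The summed RPKM of the BC list was 454.4, 454.5 and 454.7 in WT and 394.5, 389.3 and 396 in *Mll1KO*, without overlap, and *Grm6* was its most abundant gene.

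*Vsnl1*, *Necab1* and *Necab2* are expressed in several kinds of inner neurons and were not assigned to a single cell type. *Vsnl1* encodes visinin-like 1, a myristoylated sensor. Its RPKM was 46.3, 42.7 and 49.4 in WT and 49.8, 45.9 and 46.5 in *Mll1KO*, with overlap. The *Vsnl1* log2 difference was 0.04 (standard error 0.06, 95% interval -0.09 to 0.17, limma adjusted p = 0.654) and changed sign, to -0.01, without WT sample b. NECAB proteins carry an EF-hand near the amino terminus, and NECAB2 binds adenosine and metabotropic glutamate receptors. *Necab2* RPKM was 29.4, 31.8 and 36.4 in WT and 30.5, 32.0 and 27.3 in *Mll1KO*. WT sample c was highest and *Mll1KO* sample c lowest, with the other 4 close together. The log2 difference of *Necab2* was -0.11 (standard error 0.08, 95% interval -0.29 to 0.06, limma adjusted p = 0.337). It was -0.18 without WT sample a and -0.03 without WT sample c, and was not called in either case.

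*Necab1* had the highest difference of the 9 genes. Its RPKM was 9.16, 8.33 and 8.77 in WT and 8.85, 10.5 and 10.9 in *Mll1KO*. *Mll1KO* samples b and c were above all WT samples and sample a was within them. The log2 difference of *Necab1* was 0.18 (standard error 0.07, 95% interval 0.02 to 0.35, limma adjusted p = 0.104), which is not past the threshold. Without *Mll1KO* sample a it was 0.27 and called (limma adjusted p = 0.0126, with alternatives from 0.0126 to 0.303). With libraries scaled to rod genes it was -0.11 and not called (limma adjusted p = 0.166). In the annotation 7.83% of *Necab1* exon bases lie in exons of *Gm11837*, and 6.96% of the 50-base stretches of its transcripts also occur in that gene.

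**Figure D2:**
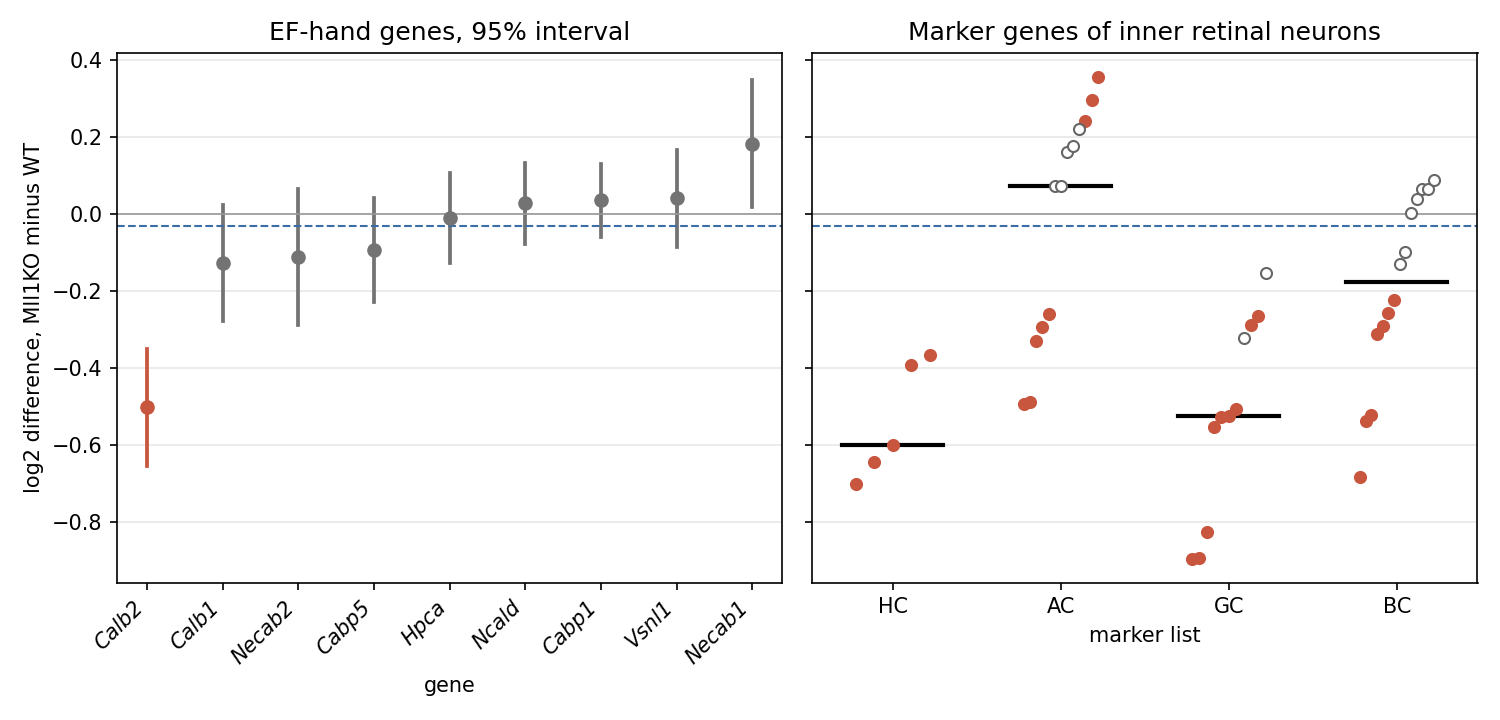
Log2 differences between *Mll1KO* and WT on the log2(RPKM + 1) scale for the 9 EF-hand genes with 95% intervals (left) and for the listed genes of the HC, AC, GC and BC marker lists with black bars at the list medians (right). Red marks called genes, grey or open points are not called, and the dashed line is the median of all genes at -0.03. *Calb2* is at -0.50, and the other 8 genes lie between -0.13 and 0.18. The list medians are -0.60 for HC, 0.07 for AC, -0.53 for GC and -0.18 for BC, and single genes of a list differ from its median.

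Profiles over the 6 libraries were compared by Pearson correlation of log2(RPKM + 1), as a description only. The genes most like *Calb2* were *Qtrt1* (a subunit of the tRNA-guanine transglycosylase) at a coefficient of 0.997, *Spns2* (a sphingosine-1-phosphate transporter) at 0.997 and *Ostc* (a subunit of oligosaccharyltransferase) at 0.996. Since the groups of *Calb2* do not overlap, genes chosen for their likeness to it are lower in *Mll1KO* by that choice, *Qtrt1* by a log2 difference of -0.22 (limma adjusted p = 0.00732). *Spns2* at -0.20 (limma adjusted p = 0.0216) and *Ostc* at -0.13 (limma adjusted p = 0.0402) were called in 11 and 5 of 16 alternatives, with adjusted p up to 0.0788 and 0.147. Those most like *Necab1* were *E330009J07Rik* at 0.985, *Lama2*, a laminin chain, at 0.983 and *Psd3*, an exchange factor for Arf6, at 0.982. Of these, none was called by limma or by limma-voom, and their log2 differences were 0.10 for *E330009J07Rik*, 0.09 for *Lama2* and 0.07 for *Psd3*.

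The 9 genes lie on 6 chromosomes of GRCm38. *Calb2* is on chromosome 8 from 110137502 to 110168210 and *Necab2* on the same chromosome from 119446719 to 119472640. *Calb1* (chromosome 4, from 15881264 to 15908064) and *Necab1* (chromosome 4, from 14952245 to 15149794) are on opposite strands, *Calb1* on the plus and *Necab1* on the minus strand, and *Hpca* lies on the same chromosome from 129111570 to 129122036. The log2 differences of *Calb1* and *Necab1* had opposite signs, but neither was called (limma adjusted p = 0.201 and 0.104). A link with their positions was not tested. *Cabp1* is on chromosome 5, *Cabp5* on chromosome 7, *Vsnl1* on chromosome 12 and *Ncald* on chromosome 15. No exon base of *Calb2*, *Calb1*, *Cabp1*, *Cabp5*, *Necab2* or *Vsnl1* lies in an exon of another gene, whereas the share was 1.95% for *Hpca* (with *Tmem54*) and 7.38% for *Ncald* (with *Gm28221* and *Gm49397*). Reads from such bases cannot be assigned to one of the genes without strand. The gene length behind RPKM was 1430 bases for *Calb2* and 2413 for *Cabp1*, against 1743 and 5832 exon bases in the annotation, and levels compared between genes depend on this length.

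The other EF-hand genes were taken from a list of 52, of which 37 are listed. Among them 8 were called, 5 higher and 3 lower, or 21.6% against 23.3% of all genes, with a median log2 difference of 0.02 against -0.03. The largest changes were in guanylate cyclase activating proteins, the EF-hand sensors of photoreceptors. *Guca1a* had RPKM values of 138, 125 and 169 in WT and 393, 466 and 405 in *Mll1KO*, and rose by 1.55 (standard error 0.10, limma adjusted p = 1.43e-05). *Guca1b* rose by 0.83 (limma adjusted p = 4.14e-05), whereas recoverin, encoded by *Rcvrn*, was at 0.08 (limma adjusted p = 0.366). Photoreceptor markers moved the same way: of 12 rod genes 9 were higher and 1 lower, and the summed RPKM of the rod list was 15478, 14462 and 14939.9 in WT and 18755, 19093 and 18477 in *Mll1KO*. Their part in the *Guca1a* and *Guca1b* results was not tested.

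Among the closest relatives of the 9 genes, the calbindin-like buffer gene *Scgn* (secretagogin) was at 0.04 (95% interval -0.05 to 0.13). Of the neuronal calcium sensors related to *Hpca* and *Vsnl1*, *Hpcal1* was higher by 0.33 (limma adjusted p = 0.00235), while *Hpcal4* at 0.14 and *Ncs1* at -0.02 were not called. The *Ncs1* difference turned to 0.01 with TMM, upper-quartile or RLE factors. *Caln1*, the single listed relative of the CaBPs, was at -0.17 (95% interval -0.34 to 0.00), and *Cabp2*, *Cabp4*, *Cabp7* and *Necab3* are not listed. Of 4 genes for KChIPs, sensors that bind potassium channels, *Kcnip1* was lower by a log2 difference of -0.28 (limma adjusted p = 0.00496), and *Kcnip2* (-0.09), *Kcnip3* (-0.11) and *Kcnip4* (-0.04) were not called. The calls of *Kcnip1*, *Guca1a* and *Guca1b* held in 16 of 16 alternatives, and that of *Hpcal1* in 15, the exception being the scaling to rod genes at 0.02.

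**Figure D3:**
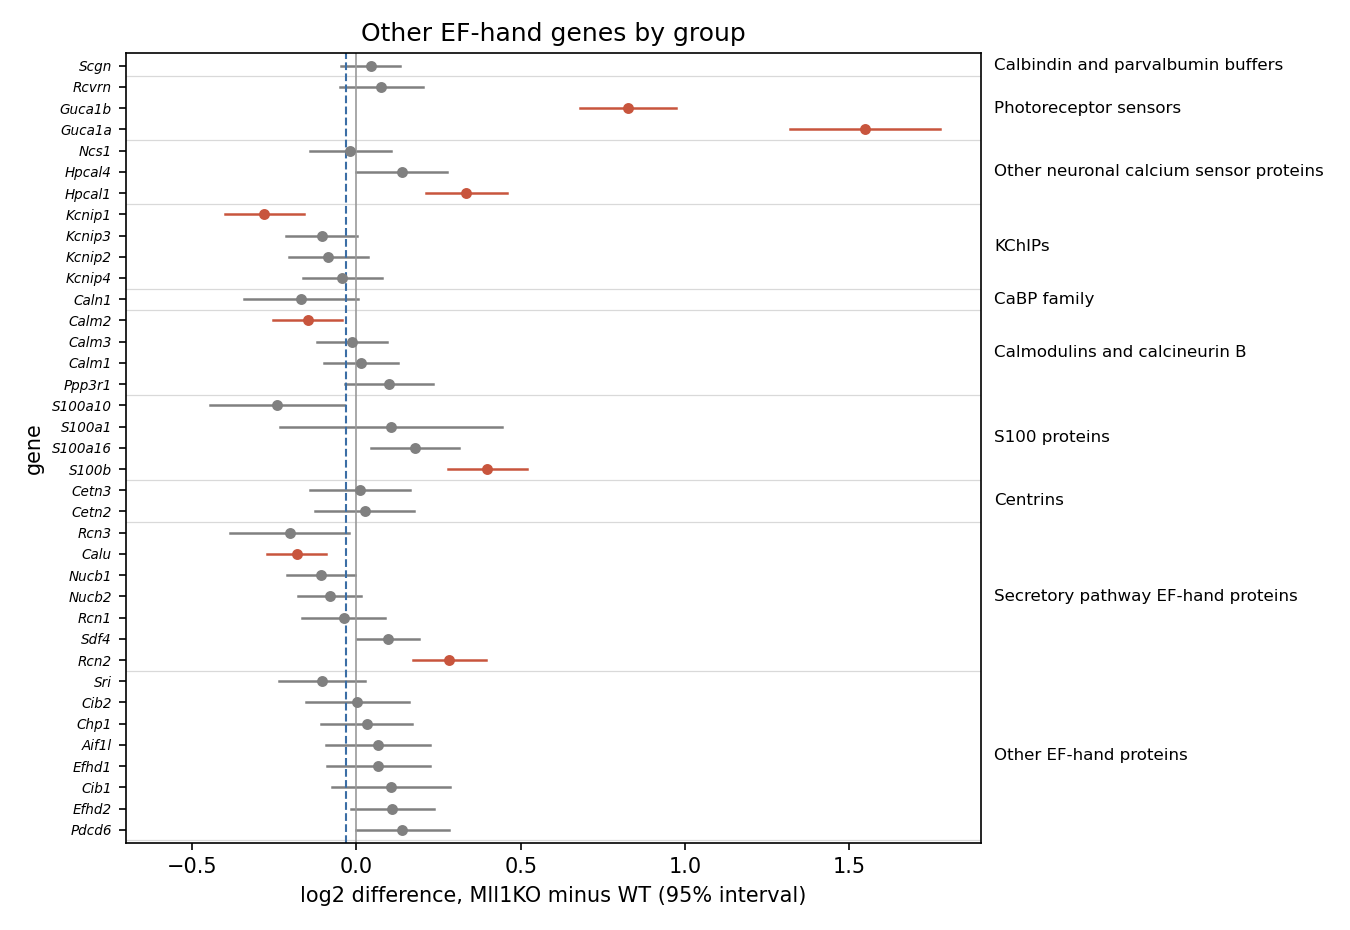
Log2 differences between *Mll1KO* and WT with 95% intervals for the 37 listed genes of the wider EF-hand family, by group. Red marks the 8 called genes and grey the others, and the dashed line is the median of all genes at -0.03. *Guca1a* at 1.55 and *Guca1b* at 0.83 stand furthest from 0 under the library-total scaling and remain above 0 at 1.22 and 0.50 with the scaling to rod genes, while 29 genes are not called.

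In the remaining groups *S100b*, a glial S100 protein gene, was higher by 0.40 (limma adjusted p = 0.000824) and *S100a10* was at -0.24 (limma adjusted p = 0.0847). Of secretory pathway genes, *Rcn2* was higher by 0.28 (limma adjusted p = 0.00326), *Calu*, named after its value was seen, was lower by a log2 difference of -0.18 (limma adjusted p = 0.01), and *Rcn3* was at -0.20 (limma adjusted p = 0.0989). Exon bases of *Calu* lie to 8.51% in exons of the cone opsin gene *Opn1sw*. *Calm2*, encoding calmodulin, was lower by a log2 difference of -0.15 (limma adjusted p = 0.0474), a call that held in 8 of 16 alternatives and was lost with TMM, upper-quartile or RLE factors (adjusted p from 1.99e-05 to 0.148 over all). Not called were *Ppp3r1* (0.10), the centrin genes *Cetn2* (0.02) and *Cetn3* (0.01), *Pdcd6* (0.14) and *Sri* (-0.10). The calls of *S100b* and *Rcn2* held in 15 of 16 alternatives and were lost with the scaling to rod genes.

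Of 26 genes for channels, pumps and receptors that work with these proteins, 23 are listed and 7 were called, 2 higher and 5 lower, or 30.4% against 23.3% of all genes, with a median of 0.03 against -0.03. With TMM or upper-quartile factors 4 were called higher and 4 lower, and with RLE factors 4 higher and 3 lower. The number called was 4 without *Mll1KO* sample b, *Mll1KO* sample c or WT sample c. Of 7 listed genes for channels modulated by CaBPs, 3 were called lower and 4 were not called, with a median of 0.03. Those called were *Cacna1d*, lower by a log2 difference of -0.26 (limma adjusted p = 0.00302) and *Cacna1a* by -0.24 (limma adjusted p = 0.011), together with the receptor gene *Itpr1* at -0.17 (limma adjusted p = 0.0402). *Cacna1f*, the channel of photoreceptor synapses, was at 0.11 (limma adjusted p = 0.051), and was called higher with TMM, upper-quartile or RLE factors and with limma-voom (limma adjusted p from 0.0165 to 0.0337, with alternatives up to 0.13). With the scaling to rod genes it was called lower, at -0.21. *Grm5*, a partner of NECAB2, was at 0.16 (limma adjusted p = 0.115) and *Adora2a* is not listed. Of exchangers, *Slc8a2* was lower by a log2 difference of -0.29 (limma adjusted p = 0.00205) and *Slc24a1*, the rod exchanger, higher by 0.36 (limma adjusted p = 0.000656), a call lost with the scaling to rod genes at 0.03. The pump genes *Atp2b1* (0.13, limma adjusted p = 0.0319), *Atp2b2* (0.01), *Atp2b3* (0.15) and *Atp2b4* (-0.16) included 1 called gene, *Atp2b1*, whose adjusted p ranged from 0.00625 to 0.103 over alternatives and which was called lower, at -0.19, with the scaling to rod genes. Of store genes, *Ryr3* was lower by a log2 difference of -0.21 (limma adjusted p = 0.0337, with alternatives up to 0.117) and *Atp2a2* was at 0.02. *Cacna1a* and *Itpr1* were named after their values were seen, and *Itpr1* was called in 7 of 16 alternatives.

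Other cell types of the retina were read from marker lists that hold none of the 9 genes. Cone genes were higher in 7 of 9 and lower in 1, from *Opn1sw* at -0.44 to *Arr3* at 0.66. Genes of Muller glia (MG) were higher in 6 of 11 and lower in 1, from *Vim* at -0.47 to *Clu* at 0.68, and both listed astrocyte genes, *Gfap* (0.97) and *Aldh1l1* (0.39), were higher. Of 12 rod genes, *Nr2e3* was lowest at -0.36 and *Pde6a* highest at 0.48. Endothelial genes ran from *Kdr* at -0.73 to *Flt1* at 0.32, with 1 higher and 2 lower of 6. Of 4 listed microglial genes, from *C1qb* (-0.12) to *C1qc* (0.15), none was called by limma or limma-voom or had an unadjusted p under 0.05. The pigment epithelium list varied between samples within a genotype, its summed RPKM being 150.5, 95.6 and 223 in WT and 80.6, 165 and 82.5 in *Mll1KO*, from *Pmel* at -1.48 to *Rgr* at 0.30, and 3 of its 7 genes, *Rpe65*, *Best1* and *Tyr*, are not listed. Of all 91 listed marker genes 28 were called higher and 31 lower, where 8.81% of all genes were called higher and 14.5% lower. With TMM, upper-quartile or RLE factors 32 markers were higher and 28 or 29 lower. With the scaling to rod genes 7 were higher and 57 lower. That scaling lowers differences by construction and sets the sum of the rod genes among the markers equal.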

How the data were processed

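RNA of 3 *Mll1KO* and 3 WT samples was sequenced as 50-base single reads, in libraries of 17961097 to 23836033 reads. Per the submitters' processing notes, reads were aligned with STAR 2.0.4b to mm10 and counted with featureCounts 1.45, and edgeR 3.17.9 gave the values, whereas the paper's methods write Ensembl GRCh38.76 and another edgeR version. The authors deposited RPKM per library for genes with CPM above 5 in at least 5 samples. Strand use in counting is not given in the sources used here. The deposited logFC, logCPM, PValue and FDR columns hold the authors' own edgeR comparison and were not used.

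The table's 11404 lines hold 11339 genes, since 59 gene IDs occur in more than one line, and 18 symbols that had become dates were restored. Read numbers were recovered from RPKM, to within 0.05 of whole reads for 100% of genes. Differences were fitted with limma 3.58.1 in R 4.3.3 on log2(RPKM + 1), with a variance trend and Benjamini-Hochberg adjustment over all genes, and the procedure was tested on simulated data.

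Alternatives were pseudocounts of 0.1 and 5, a mean RPKM of at least 1, TMM, upper-quartile and RLE factors, scaling to rod genes, no variance trend, limma-voom, a replicate block, and leaving out each sample. The members and lists were chosen with earlier results of these data known. Genes were named by a rule: all members, *Kmt2a*, the highest and lowest gene of each group in each list, every gene of groups of 4 or fewer, and the 3 genes most correlated with *Calb2* and with *Necab1*, the latter taken as the highest member because none was called higher.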

Additional observations from a re-analysis of the deposited data

How the results depend on the processing

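*Calb2* was called lower under each of the 16 alternatives. Of 144 values for the 9 EF-hand genes under the alternatives, 129 kept direction and side of the threshold, 5 passed the threshold in the same direction, and 10 reversed. Without the scaling to rod genes, 128 of 135 kept both, 1 passed and 6 reversed.

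Scaling to rod genes lowers every difference by construction, since rod genes are higher in *Mll1KO* with the other scalings. It called 9832 of all genes, 8 EF-hand genes, 31 of the wider family and 20 of the partners. It reversed *Ncald* (-0.28), *Cabp1* (-0.28), *Vsnl1* (-0.28) and *Necab1* (-0.11). In the other lists it reversed *Scgn* (-0.28), *Rcvrn* (-0.25), *Hpcal4* (-0.17), *Ppp3r1* (-0.22), *Cetn2* (-0.27), *Cetn3* (-0.31), *Rcn2* (-0.0237), *Pdcd6* (-0.17), *Cacna1f* (-0.21), *Grm5* (-0.0856), *Atp2b1* (-0.19), *Atp2b2* (-0.30), *Atp2b3* (-0.15) and *Atp2a2* (-0.30). It also reversed *E330009J07Rik* (-0.16), *Lama2* (-0.041), *Psd3* (-0.20), *Bhlhe23* (-0.21), *C1qc* (-0.11), *Rgr* (-0.0147), *Gad1* (-0.0225) and *Slc6a9* (-0.079).

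With TMM, upper-quartile and RLE factors *Hpca* reversed to 0.0213, 0.0198 and 0.0236 and *Ncs1* to 0.0114, 0.00992 and 0.0136, and the cause was not tested. Leaving out each sample gave counts from 1704 to 2536 for all genes, 1 to 2 for the EF-hand genes and 4 to 7 for the partners, where fewer samples are tested. Leaving out each sample reversed some differences, with ranges of -0.0654 to 0.0322 for *Hpca*, -0.0135 to 0.0898 for *Vsnl1*, -0.0765 to 0.51 for *Rgr*, -0.0633 to 0.0225 for *Ncs1*, -0.0493 to 0.0642 for *Cetn2*, -0.0712 to 0.0799 for *Cetn3* and -0.0233 to 0.0457 for *Atp2b2*, and the cause was not tested.

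With a replicate block, 2242 genes were called, and 4 of the partners. Deviations of samples with the same letter correlated at -0.04, -0.19 and -0.01, and those with different letters from -0.09 to 0.13. The labels do not say whether the letters pair samples. Deviations from means of 3 samples cannot decide it.

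The EF-hand genes had at least 863 reads per library, and the share of counting in the spread between samples was not separated. With 3 samples per genotype, an uncalled gene is limited only to its interval. Bulk RNA does not say which cells hold a transcript.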
